A study of Mus musculus with 6 samples.

Results

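Genes of the major histocompatibility complex (MHC, called H2 in the mouse) and of the machinery that feeds peptides to MHC molecules were followed in the cornea before and after an alkali burn. The members were the loci of the authors' gene table whose symbols start with H2- or include Cd74, B2m, Ciita, Tap1, Tap2, Tapbp, Psmb8, Psmb9, Psmb10 or Nlrc5. This gave 49 loci of 28539. They comprised 28 loci of class I heavy chains (2 classical, 26 class Ib), 10 loci of class II chains, 2 class I partners (B2m and Nlrc5), 2 class II partners (Cd74 and Ciita), 3 loci of peptide transport and loading (Tap1, Tap2 and the locus of Tapbp), 3 immunoproteasome subunits and the H2-Ke6 locus, which lies in the complex but encodes a metabolic enzyme.

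Whole corneas of female C57BL/6J mice, 6 to 8 weeks old, were profiled by poly(A) RNA-seq in 3 groups of 2 samples each. These were untreated corneas (day 0), corneas 5 days after an alkali burn, and corneas 15 days after the burn, the last described in the labels as the stage of regression. No genotype or agent other than the burn is given, and whether the 2 samples of each group are separate animals is not stated. The table holds 1 FPKM per group, pooled over its samples (a fragment count scaled by gene length and library size), with the lower and upper bound of the authors' interval. It holds 0 columns of single samples, so the spread between replicates is unknown, no test was possible and no p-value is given.

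MHC class I molecules are carried by nearly all nucleated cells and show peptides from the cytosol to CD8 T cells. The peptides are cut by the proteasome, which in inflamed tissue can exchange its standard catalytic subunits for the inducible ones (Psmb8, Psmb9, Psmb10). They are pumped into the endoplasmic reticulum by Tap1 and Tap2, and are loaded with the help of tapasin (Tapbp) onto a heavy chain paired with beta-2 microglobulin (B2m). Class II molecules are pairs of an alpha and a beta chain, made mainly by dendritic cells, macrophages and B cells, and show peptides from endosomes to CD4 T cells. The invariant chain Cd74 fills their groove until H2-DM exchanges its remnant for a peptide, and H2-O restrains H2-DM. Nlrc5 and Ciita are the transactivators of class I and class II genes, and both classes are known to be induced by interferon gamma. In the uninjured cornea, class II is known from a small population of resident myeloid cells.

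The promoters of both classes are built on the same plan, with an X box (its X1 and X2 parts) and a Y box with the core ATTGG, read by a shared complex of factors. The 5 upstream stretches are shown because they belong to genes on both sides of the class I and class II contrast below. All come from RefSeq promoter windows (build GRCm38.p6), end at the base before the annotated start and are written 5′ to 3′ along the gene. They lie at chr17:34287824-34287973 on the minus strand for H2-Aa, chr17:34305717-34305866 on the plus strand for H2-Eb1, chr17:34153041-34153190 on the plus strand for H2-DMb1, chr17:34000348-34000537 on the minus strand for H2-K1, and chr17:35262904-35263093 on the plus strand for H2-D1. Capitals in the class II stretches mark ATTGG or its reverse complement CCAAT, the palindrome TGACGTCA (a cyclic AMP response element, the consensus of the X2 part) and matches of the X1-like CCTNGNNAC. Capitals in the class I stretches mark ATTGG or CCAAT and matches of the NF-kappa B-like GGGANNNCC. The motifs marked thus differ between the classes, and lower case does not mean that a motif is absent. H2-Aa also holds 2 overlapping GGGANNNCC matches, which begin 131 and 130 bases before the start. H2-K1 also holds an X1-like match on the opposite strand, which begins 152 bases before the start.
H2-Aa: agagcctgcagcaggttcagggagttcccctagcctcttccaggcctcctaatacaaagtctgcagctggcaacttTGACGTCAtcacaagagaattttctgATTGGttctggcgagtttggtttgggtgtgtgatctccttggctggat
H2-Eb1: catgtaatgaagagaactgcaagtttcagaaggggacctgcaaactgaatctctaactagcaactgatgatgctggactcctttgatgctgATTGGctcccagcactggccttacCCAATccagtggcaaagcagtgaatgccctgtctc
H2-DMb1: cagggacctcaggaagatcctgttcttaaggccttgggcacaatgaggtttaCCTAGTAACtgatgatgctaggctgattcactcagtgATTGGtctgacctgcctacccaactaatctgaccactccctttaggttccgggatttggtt
H2-K1: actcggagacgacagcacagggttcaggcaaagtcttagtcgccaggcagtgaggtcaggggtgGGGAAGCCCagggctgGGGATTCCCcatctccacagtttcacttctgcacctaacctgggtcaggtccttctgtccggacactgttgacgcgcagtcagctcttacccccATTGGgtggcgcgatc
H2-D1: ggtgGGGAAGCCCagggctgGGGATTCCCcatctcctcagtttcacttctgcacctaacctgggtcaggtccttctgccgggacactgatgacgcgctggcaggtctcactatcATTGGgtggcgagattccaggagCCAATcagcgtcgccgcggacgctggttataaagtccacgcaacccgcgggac
In H2-Aa, TGACGTCA began 74 bases and ATTGG 48 bases before the start, with 18 bases between them. H2-Eb1 and H2-DMb1 had no TGACGTCA, but shared the 13-base run aactgatgatgct, which ended 17 bases before ATTGG in H2-Eb1 and 18 bases before it in H2-DMb1. In H2-DMb1 its first bases were also the last of the X1-like match. This run, found after the sequences had been seen, occurred in 2 of 32851 windows, those of these 2 genes. H2-K1 and H2-D1 shared a 47-base run that holds both capitalised NF-kappa B-like matches. It was present in 3 of 32851 windows, which were 2 overlapping windows of H2-K1 and that of H2-D1. In H2-D1 the run begins before the printed stretch.

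Of 51 member symbols, 36 had a promoter window of 300 bases (250 before the start and 50 after). The other 15, among them H2-Ab1, Cd74, Ciita, Nlrc5 and Tap2, had no window and were not searched. Motifs were searched on both strands, and a match describes letters, not a bound site. Members are counted per gene, with a match in any of its windows, whereas the shares are per window. Some genes have more than 1 window, so the counts and shares are not on the same unit. ATTGG was found in 31 of the 36 genes and in 37.4% of all 32851 windows. TGACGTCA was found in H2-Aa alone among these 36 and in 1.79% of all windows, and its placement up to 25 bases before ATTGG in 0.0883%. This spacing limit was not among the motifs planned in advance and H2-Aa meets it, so that share is a description only. The looser TGACGNNA, which overlaps TGACGTCA, was found in 5 genes (6.61% of all windows), CCTNGNNAC in 10 (15.8%) and GGGANNNCC in 10 (18.6%). GAAANNGAA, the core of interferon response elements, was found in 3 genes, B2m, H2-T22 and H2-T23 (8.56% of all windows). TTCNNNGAA, the gamma-activated site, was found in 4 genes, H2-DMb2, H2-M3, H2-M11 and Psmb8 (8.30%).

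Levels were compared with 1 rule, in place of a test. The rule asks for 4 things: an OK status in both groups, an FPKM of 1 or more in the higher one, a log2 ratio of (FPKM + 1) of 1 or more in either direction, and intervals of the authors that are clear of each other. A locus that meets all 4 is called apart. Values in parentheses after an FPKM are that interval. Of the 49 loci, 27 reached an FPKM of 1 in at least 1 group, 22 stayed below 1 in all groups, and 9 of those 22 were listed at 0 throughout. The intervals were wide: among members with FPKM of 5 or more, the bounds stood a median of 51.6% of the value away from it at day 0, with 50.3% at day 5 and 49.4% at day 15. Relative to loci with FPKM of at least 5 in both groups, the whole table was shifted by -0.11 on the log2 scale at day 5 and by -0.08 at day 15 against day 0. Removing this shift changed the sign of 1 member's log2 ratio, that of the Tapbp locus at day 5 (-0.04 as deposited, 0.06 rescaled).

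At day 15 the class II chains H2-Aa and H2-Ab1 and the class I light chain B2m were higher than in uninjured cornea and apart, whereas the classical class I heavy chains were close to their starting level. Against day 0, 3 of 26 members tested were apart and higher at day 15, where 2.91% of 15186 loci were, and 0 were apart and lower, where 1.81% were. At day 5 the single member apart was H2-Q10, 1 of 27 tested, with 3.42% of 15576 loci apart and higher. None of the members was apart and lower at day 5, where 2.5% of loci were. Between day 5 and day 15, 0 of 27 members were apart, with 0.395% of 14683 loci apart and higher and 0.388% apart and lower. The day 5 share among members is near the background, so it says nothing particular about them. The 2 comparisons with day 0 share that group.

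**Figure D1:**
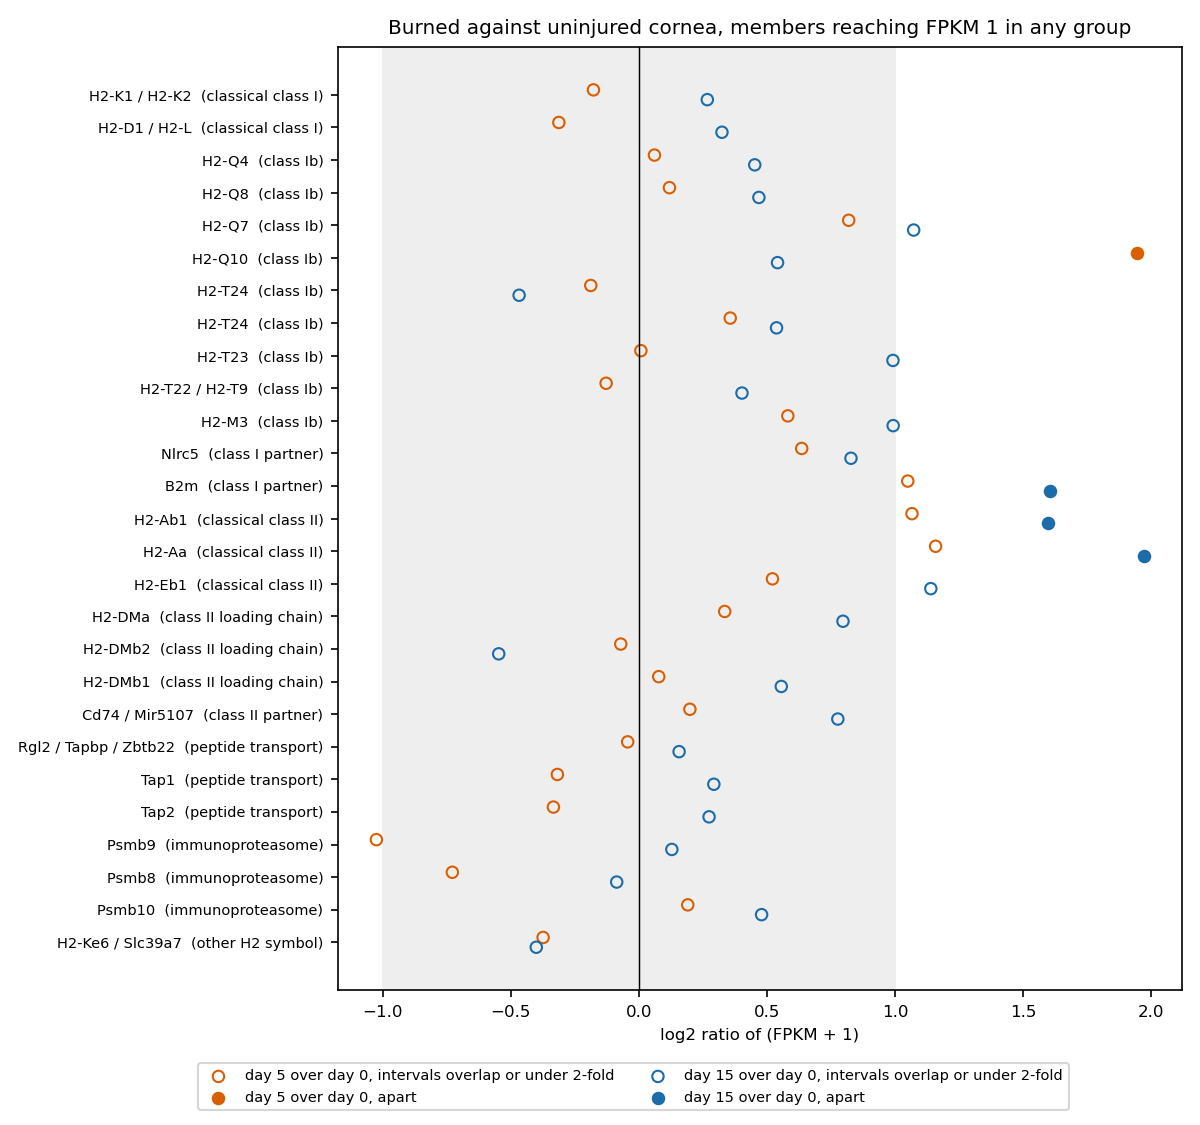
Log2 ratio of (FPKM + 1) to day 0 for the 27 member loci that reached FPKM 1 in any group, at day 5 (orange) and day 15 (blue), with the role of each in parentheses. Filled points are apart, and the grey band spans ratios under 2-fold on this scale; H2-Aa, H2-Ab1 and B2m are filled at day 15 and H2-Q10 at day 5, whereas H2-K1, H2-D1, Tap1 and Tap2 lie left of 0 at day 5 and right of it at day 15.

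H2-Aa encodes the alpha chain of the class II molecule I-A. Its FPKM was 75.4 (36.1 to 115) at day 0, 169.5 (93.6 to 245) at day 5 and 298 (171 to 425) at day 15. Intervals of day 0 and day 15 did not overlap, while that of day 5 overlapped both. The log2 ratio to day 0 was 1.16 at day 5 and 1.97 at day 15. Among loci with FPKM of at least 1, H2-Aa moved from rank 1229 of 14071 at day 0 to rank 563 of 14067 at day 5 and rank 354 of 13664 at day 15.

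H2-Ab1, the beta chain of I-A, followed the same order of days. Its FPKM was 27.6 (15.6 to 39.7) at day 0, 59.0 (33.6 to 84.3) at day 5 and 85.6 (47.8 to 123) at day 15, with a log2 ratio to day 0 of 1.07 and then 1.60. Only the day 0 and day 15 intervals were clear of each other. The alpha to beta ratio of FPKM was 2.73 (0.908 to 7.37, from the ends of the 2 intervals) at day 0, 2.88 (1.11 to 7.30) at day 5 and 3.48 (1.39 to 8.91) at day 15. These ratio ranges overlap across the 3 groups, and whether the balance of the chains differed was not tested.

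H2-Eb1 encodes the beta chain of the other class II molecule, I-E. Its FPKM was 17.8 (5.62 to 30) at day 0, 26.0 (11.5 to 40.5) at day 5 and 40.4 (19.8 to 61.1) at day 15. That order of days was that of H2-Aa, but all intervals overlapped, so the log2 ratio of 1.14 at day 15 was not a call. Its alpha chain partner is listed as the pseudogene H2-Ea-ps at 0 in all groups. C57BL/6 mice carry the H-2b haplotype, which is known not to make this alpha chain, so this row fits the strain in the labels. H2-Eb2, another E beta gene, stayed at or below 0.0903.

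Cd74, the invariant chain, shares its row with the microRNA Mir5107, which lies inside it. The FPKM of that row was 40.5 (21.3 to 59.7) at day 0, 46.6 (31.0 to 62.2) at day 5 and 70.1 (42.4 to 97.7) at day 15. All 3 intervals overlapped, and the log2 ratio to day 0 was 0.20 at day 5 and 0.78 at day 15. The value of Cd74 differed less between days than those of H2-Aa and H2-Ab1, a difference that was not tested. FPKM of H2-Aa over Cd74 was 1.86 (0.604 to 5.39), 3.64 (1.51 to 7.91) and 4.26 (1.75 to 10) at days 0, 5 and 15. Set against the sum of H2-Aa, H2-Ab1 and H2-Eb1, Cd74 was 0.335 at day 0, 0.183 at day 5 and 0.165 at day 15. Ratio ranges overlap between groups.

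The loading chains were lower in level than the peptide-binding chains. H2-DMb1, a beta chain of H2-DM, had an FPKM of 11.6 (2.59 to 20.5), 12.3 (3.53 to 21.0) and 17.5 (6.14 to 28.8) at days 0, 5 and 15. H2-DMa, the alpha chain, had 3.28 (0 to 6.69), 4.40 (0.634 to 8.17) and 6.44 (1.08 to 11.8). Both were highest at day 15 with overlapping intervals. H2-DMb2, the other H2-DM beta gene, went the other way in value, from 1.87 at day 0 and 1.73 at day 5 to 0.963 at day 15, also with overlapping intervals. The 2 beta genes share sequence: 27.2% of the 50-base words of the H2-DMb1 transcript occur in H2-DMb2, so reads could be divided between them in ways the table does not show. H2-Oa and H2-Ob, the chains of H2-O, were below 1 in all groups, at 0.527 and 0.528 on day 15.

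**Figure D2:**
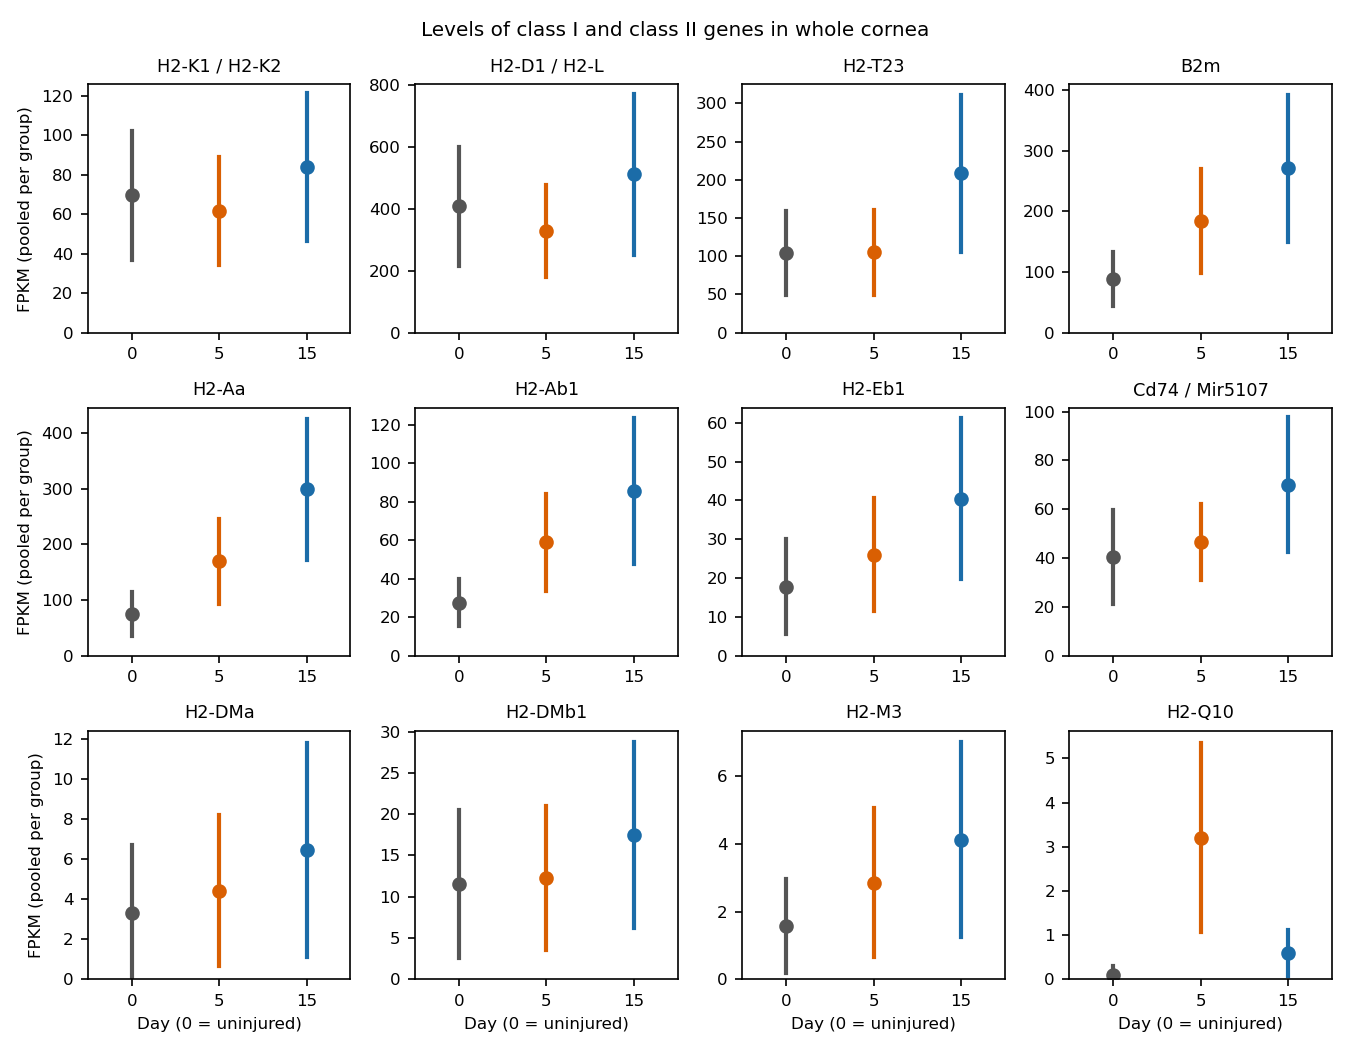
FPKM (vertical axis, from 0, a scale of its own for each gene) of 12 member loci at day 0, 5 and 15; points are the authors' pooled group values and bars their intervals. For H2-Aa, H2-Ab1 and B2m the day 15 bar clears the day 0 bar, for H2-K1 and H2-D1 the bars of all days overlap, and H2-Q10 is high at day 5 alone.

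The classical class I heavy chains lay on 2 rows, each naming 2 genes. H2-D1 shares its row with H2-L, a gene absent from the H-2b haplotype. That row had an FPKM of 408 (216 to 601) at day 0, 329 (181 to 477) at day 5 and 512 (250.2 to 773) at day 15. H2-K1 shares its row with H2-K2, which GENCODE annotates as a pseudogene. Its FPKM was 69.6 (36.9 to 102), 61.4 (34.1 to 88.8) and 84.0 (46.6 to 121). Both rows were lowest at day 5 and highest at day 15, and all their intervals overlapped: the log2 ratios to day 0 were -0.31 and -0.18 at day 5, and 0.32 and 0.27 at day 15. The H2-D1 row was the highest of all members that are MHC chains in each group, at rank 264 of 14071 loci at day 0. Its FPKM was 5.87, 5.35 and 6.10 times that of the H2-K1 row at days 0, 5 and 15, with ranges of 2.12 to 16.3, 2.03 to 14.0 and 2.06 to 16.6 that overlap. Of the 50-base words of the H2-D1 transcript, 14.3% occur in another gene, and of H2-K1 8.79%, whereas H2-Aa, H2-Ab1, H2-Eb1, Cd74 and B2m share none.

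B2m, the light chain of every classical class I molecule, was the class I component called apart at day 15. Its FPKM was 88.3 (43.3 to 133) at day 0, 184 (98.9 to 269) at day 5 and 270.5 (149 to 391) at day 15, with day 0 and day 15 apart. The log2 ratio to day 0 was 1.05 at day 5 and 1.60 at day 15. Set against the summed H2-K1 and H2-D1 rows, B2m was 0.185 (0.0616 to 0.526) at day 0, 0.471 (0.175 to 1.25) at day 5 and 0.454 (0.167 to 1.32) at day 15. The B2m row has a position field that spans 66082 bases (chromosome 2, 122120108 to 122186189 on mm10) and is 12.2 times the length of the gene. The same field stands on the separate rows of Patl2 and Trim69, so it spans neighbouring genes, each with an FPKM on its own row.

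Class II chains were low relative to classical class I chains at day 0 and nearer to them at days 5 and 15. H2-Aa, H2-Ab1 and H2-Eb1 summed to an FPKM of 121 at day 0, 254 at day 5 and 424 at day 15. Classical class I, the H2-K1 and H2-D1 rows, summed to 478, 390.3 and 596. The quotient was 0.253 (0.0815 to 0.728) at day 0, 0.652 (0.245 to 1.73) at day 5 and 0.712 (0.267 to 2.06) at day 15. These ranges take the ends of the summed intervals and overlap. With H2-Aa alone over the H2-K1 row the same quotient was 1.08, 2.76 and 3.55, a level set by the choice of chains but with the same order of days.

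**Figure D3:**
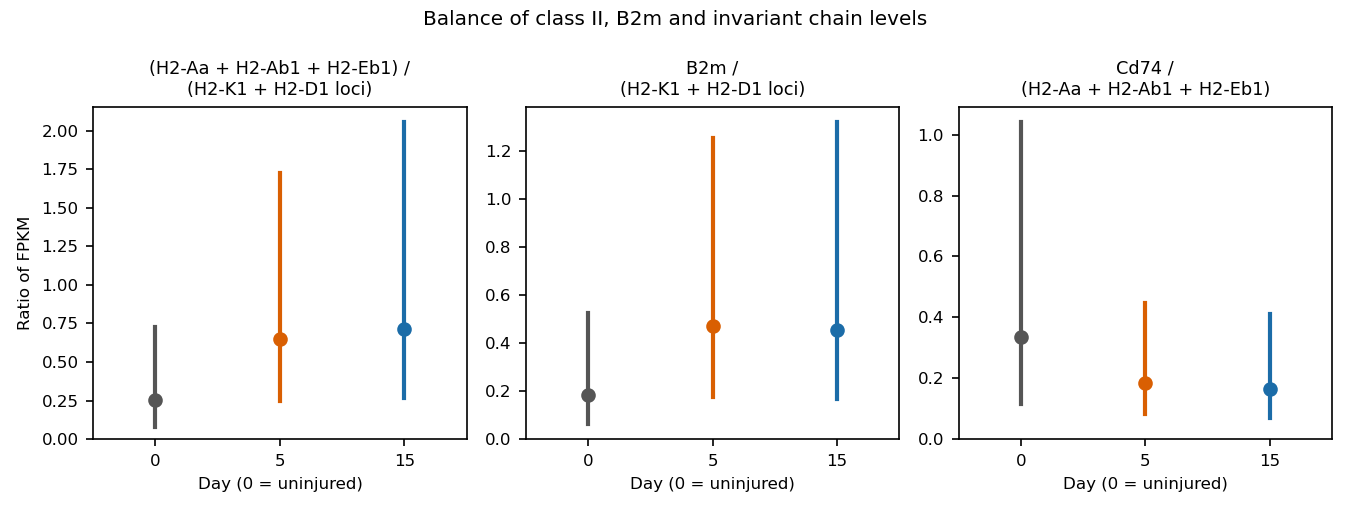
Ratios of FPKM at day 0, 5 and 15: class II chains over the classical class I rows, B2m over the same rows, and Cd74 over the class II chains; points are ratios of the pooled values and bars run from the lowest to the highest ratio that the ends of the intervals allow. The first 2 ratios are lowest at day 0 (0.253 and 0.185), the third is highest there (0.335), and bars overlap between days in each panel.

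As groups, class II chains had larger median log2 ratios than class I heavy chains in the comparisons with day 0. The median over class II chains tested was 0.43 at day 5 and 0.97 at day 15 against day 0 (6 loci each), and 0.50 at day 15 against day 5. Over class I heavy chains tested it was 0.06 (11 loci), 0.46 (10 loci) and 0.39 (11 loci). Over all loci tested the medians were -0.09, -0.10 and -0.01. With FPKM of at least 5 required, the day 5 median of class I was -0.13 over 5 loci and that of class II 0.79 over 4. With the same filter the medians at day 15 against day 5 were 0.53 for both classes. With no filter on low values the class II median was 0.09 at day 5 and 0.56 at day 15. The class II median is over 3 H2-DM and 3 classical chains, and the difference between the classes was not tested.

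A steady order of the 3 days, with FPKM lowest at day 0 and highest at day 15, was shown by 15 of the 27 members that reached FPKM 1. Among 15900 loci that reached FPKM 1, 13.8% had this order. The 15 were H2-Aa, H2-Ab1, H2-Eb1, H2-DMa, H2-DMb1, Cd74, B2m, Nlrc5, Psmb10, H2-M3, H2-Q4, H2-Q7, H2-Q8, H2-T23 and 1 of the 2 H2-T24 rows. Another 8 members were lowest at day 5, where 34.8% of the 15900 loci were. These 8 were the rows of H2-K1, H2-D1, H2-T22, Tap1, Tap2, Tapbp, Psmb8 and Psmb9. The Tapbp row was lowest at day 5 only as deposited, not after removal of the table-wide shift. Of class II chains, 5 of 6 had the steady order and 0 were lowest at day 5, whereas of class I heavy chains 6 of 11 had the steady order and 3 were lowest at day 5. The order is of pooled values whose intervals mostly overlap, and 22 of the 27 members were highest at day 15.

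Class Ib genes, the non-classical heavy chains, were mostly silent or low. Of 26 rows, 17 stayed below FPKM 1 in every group, among them H2-M1, H2-M9, H2-M11, H2-M10.1, H2-M10.3, H2-M10.4, H2-M10.5 and H2-M10.6, which were listed at 0 throughout. Many H2-M10 genes are known from the vomeronasal organ. The others below 1 were H2-Q1, H2-Q2, H2-Q5, H2-Bl, H2-T3, H2-T10, H2-M2, H2-M5 and H2-M10.2, with the highest value 0.948 for H2-Q5 at day 5.

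H2-T23, which encodes Qa-1 and shows class I leader peptides to receptors of natural killer cells, was the most abundant class Ib gene. Its FPKM was 104 (49.1 to 159.5) at day 0, 105 (49.4 to 160.5) at day 5 and 208 (106 to 311) at day 15. Levels were alike at days 0 and 5 and 2.0-fold higher at day 15 than at day 0, a log2 ratio of 0.99, with overlapping intervals. Over the classical class I rows it was 0.218, 0.269 and 0.350 at days 0, 5 and 15. Its position field is shared by 5 rows, those of H2-T23, both H2-T24 rows, H2-T22 with H2-T9, and A930015D03Rik, and 29.8% of its 50-base words occur in other genes, so its reads are less certain than those of class II genes.

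H2-Q10, a class Ib chain that is secreted and best known from the liver, was the member apart at day 5. Its FPKM was 0.0939 (0 to 0.303) at day 0, 3.21 (1.06 to 5.36) at day 5 and 0.592 (0.0707 to 1.11) at day 15. For day 5 the interval was clear of that of day 0 and overlapped that of day 15. The log2 ratio to day 0 was 1.94, and the call was lost with a pseudocount of 5 or with FPKM of at least 5 required. Other genes share 8.03% of its 50-base words, most often H2-Q1, which stayed at or below 0.133.

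The remaining class Ib rows above 1 were not apart in any comparison. H2-T22 with H2-T9 had an FPKM of 14.5, 13.2 and 19.4 at days 0, 5 and 15, and H2-Q4 had 11.2, 11.7 and 15.7. H2-M3, which binds formylated bacterial peptides, had 1.57 (0.178 to 2.97), 2.85 (0.657 to 5.05) and 4.12 (1.24 to 7.0), with a log2 ratio of 0.99 at day 15 against day 0. H2-Q7, a gene of the Qa-2 family, had 0.453, 1.56 and 2.06, and H2-Q8 had 1.21, 1.40 and 2.05. All but H2-T22 were in the steady order of days. H2-T24 had 2 rows that disagreed in direction (1.89, 1.54 and 1.09 on one, 0.880, 1.41 and 1.73 on the other), with intervals from 0 upward in every group. Shared words were 44.7% for H2-T22, 39.2% for H2-Q4 and 34.9% for H2-Q7.

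Of the 6 rows of peptide transport and the immunoproteasome, 5 had their lowest value at day 5, an order that 34.8% of loci share, and 0 were apart. The Tapbp row is among them, but its log2 ratio at day 5 was -0.04 as deposited and 0.06 rescaled. Psmb9, an inducible catalytic subunit, had an FPKM of 21.9 (8.86 to 35) at day 0, 10.3 (2.45 to 18.1) at day 5 and 24.1 (9.79 to 38.4) at day 15. Psmb8, the inducible subunit of chymotrypsin-like activity, had 26.6 (15.0 to 38.2), 15.7 (7.81 to 23.5) and 25 (14.1 to 35.9). Both dipped in value at day 5 and were back near the day 0 level at day 15, with intervals that overlapped at every step. The log2 ratios at day 5 against day 0 were -1.02 for Psmb9 and -0.73 for Psmb8. Psmb9 passed the size threshold and missed the call because the intervals overlap. Psmb10, encoded on another chromosome (8, whereas the others lie on 17), had 25.5, 29.2 and 35.9 and showed no dip.

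The standard subunits that these replace stayed nearly level. Psmb5 had an FPKM of 21.7, 20.9 and 20.9, Psmb6 had 125, 125 and 123, and Psmb7 had 110.2, 121 and 100.1. Psmb8 over Psmb5 was 1.22 (0.446 to 3.91) at day 0, 0.749 (0.244 to 2.41) at day 5 and 1.20 (0.438 to 3.73) at day 15. Psmb9 over Psmb6 was 0.175, 0.0825 and 0.196, and Psmb10 over Psmb7 was 0.231, 0.241 and 0.359. The first 2 ratios were lowest at day 5, with ranges that overlap.

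Tap1 and Tap2, the subunits of the peptide pump, had the same order of days. Tap1 had an FPKM of 13.2 (6.66 to 19.7), 10.4 (4.88 to 15.8) and 16.3 (8.27 to 24.4), and Tap2 had 22.5 (11.4 to 33.5), 17.6 (8.72 to 26.5) and 27.4 (14.5 to 40.3). Both were lowest at day 5 and highest at day 15, and their log2 ratios at day 5 were -0.32 and -0.33. Tap1 and Psmb9 lie head to head with exons that overlap on opposite strands, and Psmb8 and Tap2 each overlap an exon of Gm20496, so without stated strandedness their reads cannot be fully told apart. Of the 50-base words of Psmb9, 12.5% are also in Tap1. Tapbp shares its row with Rgl2 and Zbtb22, so the FPKM of 124, 119.9 and 138 is not that of tapasin alone. H2-Ke6, on a row with the zinc transporter gene Slc39a7, had 104, 80.3 and 78.8.

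The transactivators were listed at low levels. Nlrc5 had an FPKM of 0.328 (0 to 0.760), 1.06 (0 to 2.15) and 1.36 (0.00257 to 2.71) at days 0, 5 and 15. Ciita had 0.20 (0.0173 to 0.382), 0.321 (0.0194 to 0.623) and 0.562 (0.118 to 1.01). Both had the order of days seen for H2-Aa, H2-Ab1 and H2-Eb1, and in both all intervals overlapped. Ciita stayed below 1, so it was not compared under the rule.

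**Figure D4:**
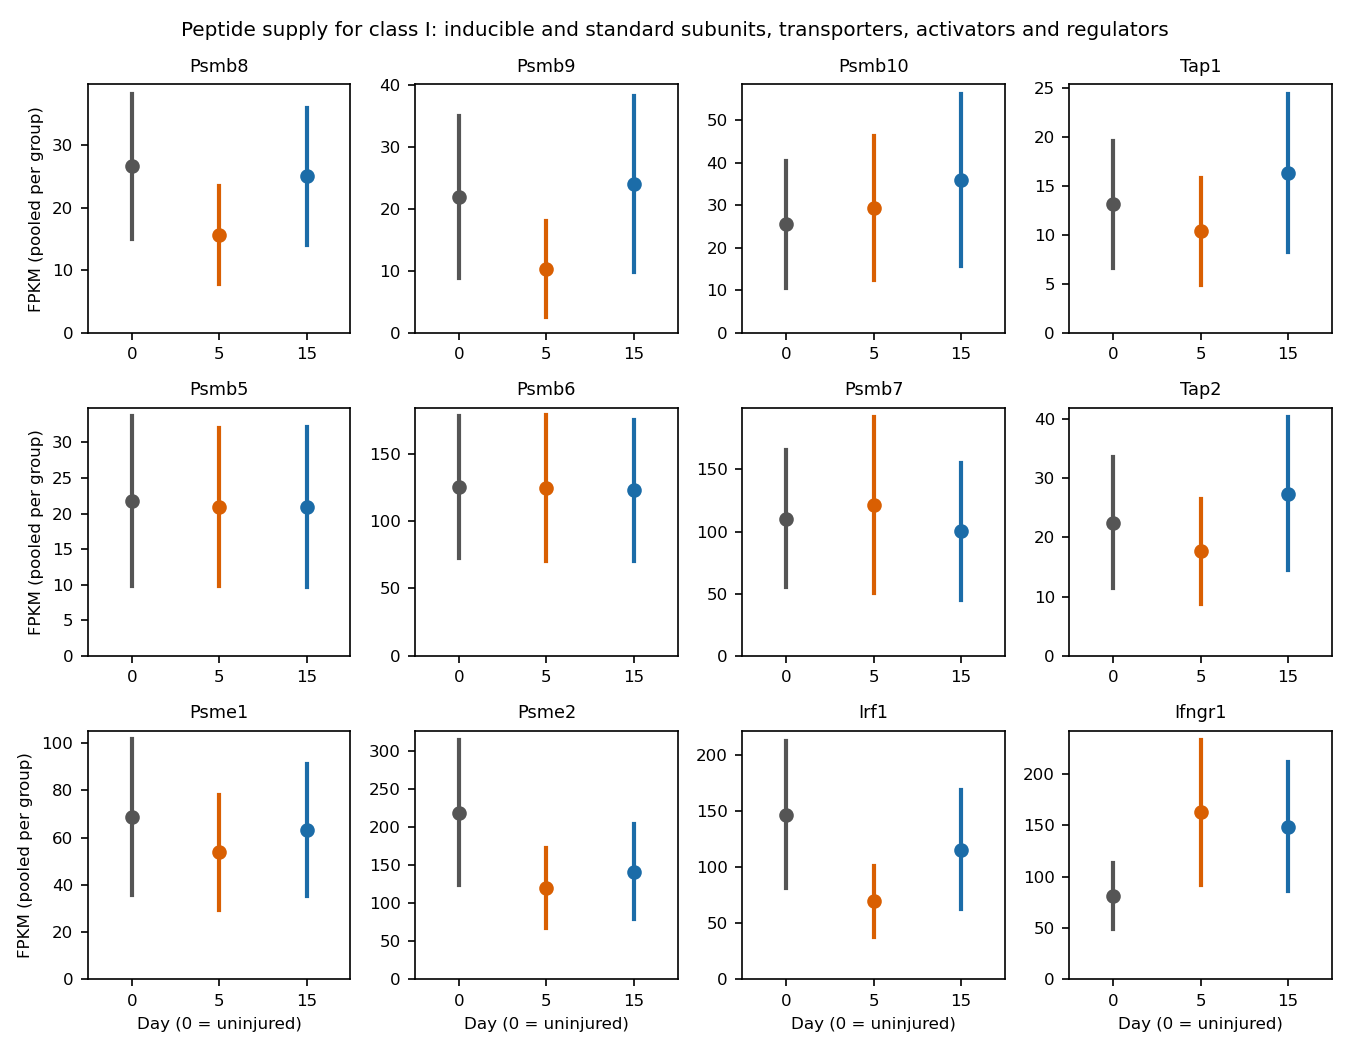
FPKM (vertical axis, from 0, a scale of its own for each gene) at day 0, 5 and 15 of inducible subunits (Psmb8, Psmb9, Psmb10), the standard subunits they replace (Psmb5, Psmb6, Psmb7), the peptide pump (Tap1, Tap2), the proteasome activator (Psme1, Psme2), the regulator Irf1 and the receptor chain Ifngr1; points are pooled values and bars the authors' intervals. Psmb8, Psmb9, Tap1, Tap2, Psme1, Psme2 and Irf1 have their lowest point at day 5, Psmb10 and Ifngr1 do not, and bars overlap in every panel.

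Lists of further pathway genes were read under the same rule. Of 10 genes of class I loading and peptide trimming, 0 were apart in any comparison. Psme2, a subunit of the interferon-inducible proteasome activator, had an FPKM of 219 (123 to 315), 120.1 (66.9 to 173) and 141 (79.0 to 204), and its partner Psme1 had 68.6, 53.8 and 63.2. The loading chaperone Calr had 395, 725 and 621, and Pdia3, the thiol enzyme of the loading complex, had 251, 421 and 391. The activator was thus lowest at day 5, as Psmb8 and Psmb9 were, whereas these 2 general chaperones were highest there. The median log2 ratio of the list was 0.23 at day 5 and 0.19 at day 15 against day 0, beside -0.09 and -0.10 over all loci.

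Of 8 class II processing genes, 1 was apart and higher at both days, where 3.42% and 2.91% of all loci were. This was Ctss, encoding cathepsin S, which trims the invariant chain: its FPKM was 33.0 (17.5 to 48.6) at day 0, 145 (81.7 to 207) at day 5 and 288 (157 to 418) at day 15. Log2 ratios to day 0 were 2.1 and 3.08. The other 7 were not apart. Ctsl, the cathepsin that does this work in thymic epithelium, had 380.0, 238 and 243, and Lgmn, an asparagine endopeptidase, had 33.5, 46.5 and 66.0. Ifi30, the lysosomal thiol reductase, had 27.1, 51.3 and 42.0. The ligases that remove class II from the surface were March1, at 0.692, 1.81 and 3.06, and March8, at 28.7, 14.4 and 22.8. Median log2 ratios of the 8 were 0.54 and 0.69.

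Of 7 genes of the factors that bind the X and Y boxes (Rfx5, Rfxap, Rfxank, Nfya, Nfyb, Nfyc, Creb1), 0 were apart, and their median log2 ratio was -0.21 at both days. Of 14 genes of the interferon gamma axis and class I regulators, 12 reached FPKM 1 for the comparison at day 5, with 0 apart, and 11 for that at day 15, with 1 apart where 2.91% of all loci were apart and higher. This was Irf8, a factor of myeloid cells, at 0.688 (0.119 to 1.26), 2.49 (0.873 to 4.11) and 3.16 (1.28 to 5.04), higher at day 15 than at day 0. Ifng itself was listed at 0 at day 0 and was 0.0872 and 0.119 afterwards. Irf1 had 147 (81.0 to 213), 69.2 (37.3 to 101) and 116 (62.4 to 169), a log2 ratio of -1.07 at day 5 with overlapping intervals. Irf1 thus had its lowest value on the day on which Psmb9 and Psmb8 had theirs. Ifngr1, a receptor chain, had 80.9, 163 and 149.

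Co-stimulatory genes differed in value in both directions. Of 6, 5 could be compared with day 0 at each day and 0 were apart. Cd86 had an FPKM of 0.457, 1.77 and 2.19 and Cd80 had 1.65, 9.06 and 3.71. Cd40 had 6.00 (1.63 to 10.4), 0.822 (0 to 1.71) and 1.29 (0 to 2.67), and Cd274, encoding the inhibitory ligand PD-L1, had 63.3 (28.1 to 98.6), 26.7 (8.40 to 44.9) and 43.3 (19.4 to 67.3). The last 2 were highest in uninjured cornea, with intervals that overlapped. Of 7 MHC-like genes outside the complex, 5 could be compared and 0 were apart: Mr1, which shows vitamin metabolites, had 46.4, 23 and 31.3, and Cd1d1, which shows lipids, had 0.186, 1.20 and 1.69.

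Markers of several cell types moved over the same days. The summed FPKM of 10 macrophage markers was 171 at day 0, 617 at day 5 and 1070.0 at day 15. Against day 0, 3 of the 10 were apart and higher at day 5, where 3.42% of all loci were. At day 15 it was 5 of the 10, where 2.91% of all loci were. None of these markers was listed at 0. Lyz2 (68.3, 385 and 685), Mrc1 and C1qb were apart at both days, and Lyz2 was the largest part of the sum at days 5 and 15. Emr1 and C1qc were apart at day 15 only. In 10 dendritic cell markers the sum was 3.37, 6.93 and 7.35, with 9 below FPKM 1 at day 0 and 8 at days 5 and 15. Itgax alone was apart, at day 15. All 7 B cell markers were below 1 in every group, with Pax5 at 0, and their sum was 1.01, 0.711 and 0.701. Sums of 8 T cell markers were 2.93, 6.05 and 7.81, of 6 natural killer cell markers 0.531, 3.57 and 4.54, of 7 neutrophil marker rows 22.1, 403 and 104, and of 6 blood endothelium markers 16.9, 62.5 and 67.3. Calls were not limited to macrophage markers. Of neutrophil rows tested against day 0, 4 of 5 were apart and higher at day 5 and 3 of 4 at day 15. Of blood endothelium markers, 3 of 6 were at each day (Pecam1, Emcn and Cdh5). Of T cell markers tested 0 of 3 were, and of natural killer cell markers 0 of 1, at each day. At 0 were Cd8a and Cd3d at day 0, Elane in all groups and Mpo at days 0 and 15. Ptprc, the general leukocyte marker, had 3.62, 19.1 and 16.0 with wide intervals (0 to 54.0 at day 5). The planned macrophage marker Cd68 and dendritic cell marker Xcr1 were left out, because their rows name other genes. The planned neutrophil marker Ly6g had no row.

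The 3 class II chains together were highest at day 15. So were the summed macrophage, dendritic cell, T cell, natural killer cell and blood endothelium markers. The neutrophil sum was highest at day 5 and the B cell sum at day 0. Among markers reaching FPKM 1 at day 5 or day 15, day 15 was above day 5 in 10 of 10 for macrophages. The same held for 3 of 6 blood endothelium, 1 of 2 dendritic cell, 3 of 3 T cell and 1 of 1 natural killer cell markers. That 1 was Gzma (0.219, 2.11 and 3.03), most of its sum at days 5 and 15. At day 15, 5 of 8 T cell and 5 of 6 natural killer cell markers were below FPKM 1. The summed FPKM of the class II chains over that of the macrophage markers was 0.708 at day 0, 0.412 at day 5 and 0.397 at day 15. Without Lyz2, a choice made after the values were seen, it was 1.18, 1.09 and 1.10. The quotient thus depended on which markers were summed, and no other marker was left out in turn. Itgam (34.0, 40.0 and 55.7), which differed less between days, was in both sums. Over the dendritic cell markers the class II sum was 35.9, 36.7 and 57.7, and over Ptprc, whose intervals were wide, 33.4, 13.3 and 26.5. B2m over the macrophage markers was 0.517, 0.298 and 0.253, and 0.862, 0.790 and 0.702 without Lyz2. Over Ptprc it was 24.4, 9.63 and 16.9. The part of cell composition in the levels of class II, B2m, Ctss and Irf8 was not tested. In whole tissue, more cells of a type and more RNA per cell cannot be told apart.

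**Figure D5:**
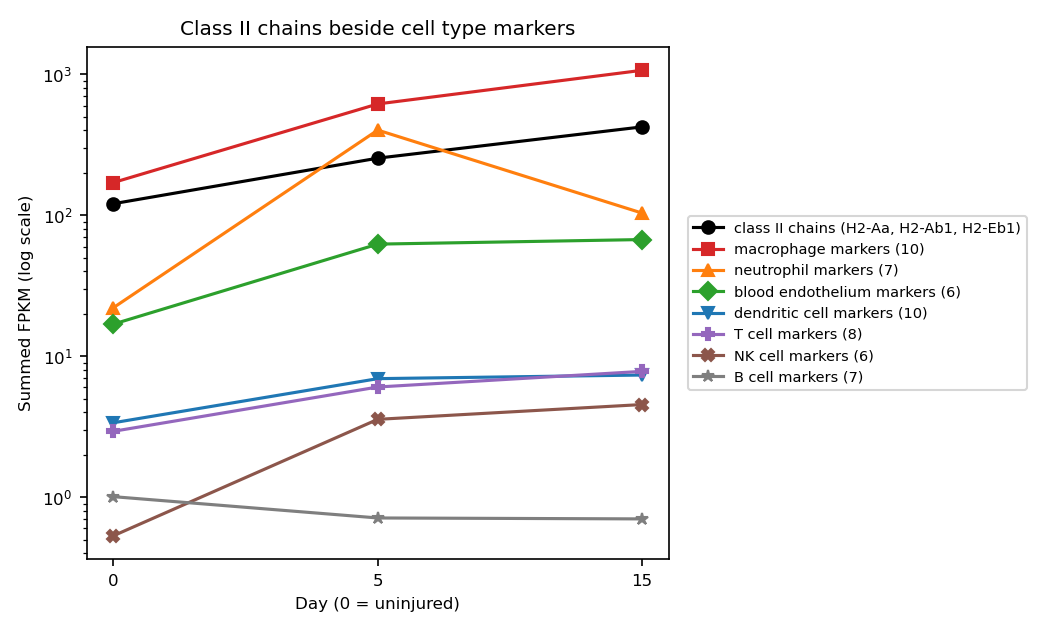
Summed FPKM (log scale) of the class II chains H2-Aa, H2-Ab1 and H2-Eb1 and of marker lists for 7 cell types at day 0, 5 and 15; the number of marker rows is in parentheses. Class II (121, 254, 424) and macrophage markers (171, 617, 1070.0) step up over the days, neutrophil markers peak at day 5 (403), and B cell markers stay near or below 1.

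The tissue of the labels was visible in its own markers, which differed in both directions after the burn. The sum of 5 corneal epithelium markers was 11650.6 at day 0, 1560.1 at day 5 and 2899 at day 15. Aldh3a1 made up most of it at day 0, at 9150 (998 to 17302), with 303 at day 5 and 866 at day 15. Aldh3a1 and Upk1b (995, 103 and 369.8) were apart and lower at day 5. Krt5 (1199, 589.7 and 796) and Pax6 (128, 63.6 and 108) were also lowest in value at day 5, whereas the basal keratin Krt14 was lowest at day 0 (179.6, 500.2 and 759.9).

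Of 5 keratocyte markers, summing to 5040.6, 2833 and 3933, Kera (516, 11.2 and 16.2) was apart and lower at both days and Ptgds (109, 11.7 and 54.7) at day 5. Dcn, the largest part of the sum at day 0, had 3484, 1388 and 2104. Col1a1 (695, 1179 and 1472) and Lum (237, 243 and 286) were highest in value at day 15. Krt12 was left out of these sums, because its status at day 0 was not OK, as at 1 of 28539 loci. The part of these cells in the day 5 values of Psmb8, Psmb9, Tap1, Tap2, H2-K1 and H2-D1 was not tested.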

How the data were processed

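Poly(A) RNA-seq of 6 whole-cornea samples in 3 groups of 2 was used. The labels name the group and replicate of each sample. Per the submitters' processing notes, TopHat2 2.1.0, Bowtie2 2.2.6, Cufflinks 2.2.1, Cuffdiff (no version) and the mm10 build were used. Read length, strandedness and annotation are not given in the sources used here. The deposited table, made by the authors, gives FPKM per locus and group, pooled over samples, with the lower and upper bound of an interval whose level is not stated and a status. Depth is unknown, since FPKM carries no read totals. The table holds 0 columns of single samples, so neither replicate spread nor a test could be computed. Pooling hides a deviating sample, and an interval is the only error available. Rows that name several genes were kept.

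From these values, log2 ratios with a pseudocount of 1, which understate differences of low genes, folds without it, ratios of FPKM and sums over lists were computed with Python 3.11.15, numpy 2.4.6 and pandas 2.3.3, and figures were drawn with matplotlib 3.10.9. The rule for calling a locus apart was applied to all 28539 loci, after its code was checked on noise-free values made with known differences. That check does not measure how well the rule finds real differences. The members and lists were chosen with earlier results of these data known. Values are given for the classical chains, their loading chains and partners, class Ib rows reaching FPKM 1 and every member called apart. They are also given for pathway genes that are apart or that a result turns on. Several cell type markers that are apart are only named, counted or summed. Locus starts count from 0 in the file (9326 loci with 1 symbol start 1 base below the RefSeq gene, 502 at the same base) and are printed from 1. Gene structures come from GENCODE M21 and promoter windows from RefSeq (GRCm38.p6). Sequence shared between genes was measured as 50-base words of a transcript that occur in another gene, on either strand, a length that stands in for the read length. Alternatives changed the pseudocount, the minimum FPKM, the minimum ratio, the scaling and the chains in the class ratio, or left out the intervals or the rows naming several genes. The values of 1 listed gene are not reported here.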

Additional observations from a re-analysis of the deposited data

How the results depend on the processing

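Of 63 alternative values, 49 kept their direction and stayed within 0.2 on the log2 scale or 1.5-fold of the reported one. H2-Aa, H2-Ab1 and B2m were apart at day 15 against day 0 under each of the 8 alternatives to the call rule. Of these alternatives, only the pseudocount of 5 could have removed those calls. The others loosen the rule, leave these rows as they are or raise their ratios. The number of members apart at day 5 against day 0 was 0 with a pseudocount of 5 and 0 with FPKM of at least 5. Without the intervals it was 5 (H2-Ab1, H2-Aa, B2m and H2-Q10 higher, Psmb9 lower), 5 at day 15 against day 0 (H2-Eb1 and H2-Q7 added) and 2 at day 15 against day 5 (Psmb9 higher, H2-Q10 lower). Over all loci that rule called 21.9%, 17.8% and 5.97%, against 5 of 27, 5 of 26 and 2 of 27 members. The class I median log2 ratio at day 5 against day 0 reversed to -0.13 with FPKM of at least 5, and at day 15 against day 5 it was 0.17 with no filter on low values. The class II median at day 5 was 0.79 with FPKM of at least 5 and 0.087 with no filter, and at day 15 against day 0 it was 0.73 with a pseudocount of 5 and 0.56 with no filter. The class II to class I ratio of FPKM with H2-Aa alone over H2-K1 alone was 1.08 at day 0, 2.76 at day 5 and 3.55 at day 15. Leaving out rows that name several genes gave no class ratio, because both classical class I rows name 2 genes. No sample could be left out. No paired analysis was possible because no column belongs to a single sample.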
